A study of Mus musculus with 4 samples.

Results

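The motile cilia genes described here are 38 of the 22547 features counted in each library: 8 regulators of ciliogenesis, 24 genes of the axoneme and its assembly, and 6 genes taken as late genes of the differentiated ciliated cell. They were chosen by symbol, and each symbol matched 1 feature. Their levels were read in ciliated cells, defined as cells in which Foxj1, Ccdc153, Dynlrb2 and Tppp3 together held at least 0.1% of the UMIs (unique molecular identifiers, each counting 1 captured RNA molecule). The study sequenced lung cells of Gramd2creERT2;mTmG mice, labelled as alveolar epithelial cells, in 4 libraries with 1 library per time point. In mTmG animals a cell carries membrane tdTomato until Cre recombinase switches it to membrane GFP, and here Cre is tamoxifen-inducible and driven from the Gramd2 gene. GFP-positive cells sorted by flow cytometry were day 0. The other libraries came from organoids grown from such cells for 8, 13 or 20 days with MLg mouse lung fibroblasts in Matrigel, in medium with serum and SB 431542, an inhibitor of the TGF-beta type I receptor, and these were enriched for EpCAM-positive cells before loading. The labels do not give the number of animals behind a library. All comparisons below are between single libraries, so intervals cover counting error only, no p-values are given, and the sort, the EpCAM enrichment and the culture time cannot be told apart.

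Motile cilia are built on an axoneme of microtubule doublets that carry outer and inner dynein arms, radial spokes, nexin links and a central pair. In a multiciliated cell Mcidas (multicilin) starts the programme, Ccno and Deup1 act in the deuterosome, a transient body on which the many centrioles that become basal bodies are made, and Trp73, Myb, Foxj1 and the RFX factors switch on the genes of the axoneme. Deuterosomes disappear once the centrioles have docked, while Foxj1 and the axonemal genes stay on in the mature cell. In the lung, multiciliated cells line the airways and move mucus, and healthy alveoli do not contain them.

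Promoter sequences were available for 31 of the 38 members in RefSeq (GRCm38.p6), as windows from 250 bases before to 50 bases after the start of transcription. Foxj1, Tppp3, Rsph1, Rsph4a, Dnai1, Dnai2 and Riiad1 had no entry. These 3 stretches upstream of the start are shown because their genes span the range of the day 8 results: Ccno was far higher in culture, Sntn was the member with the lowest ratio, and Dynlrb2 was among those that differed least. Capitals mark the X-box, the element bound by RFX factors, or its core GTTGCC, and in Sntn also the forkhead motif TGTTTAC read on the opposite strand as GTAAACA. The stretches lie on the plus strand at chr13:112987552-112987801 (Ccno), chr8:116504765-116505014 (Dynlrb2) and chr14:13670626-13670875 (Sntn).
Ccno: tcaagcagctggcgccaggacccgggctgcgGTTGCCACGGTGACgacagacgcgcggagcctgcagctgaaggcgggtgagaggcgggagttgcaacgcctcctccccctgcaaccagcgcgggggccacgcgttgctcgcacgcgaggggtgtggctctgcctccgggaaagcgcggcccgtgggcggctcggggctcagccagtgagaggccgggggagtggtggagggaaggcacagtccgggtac
Dynlrb2: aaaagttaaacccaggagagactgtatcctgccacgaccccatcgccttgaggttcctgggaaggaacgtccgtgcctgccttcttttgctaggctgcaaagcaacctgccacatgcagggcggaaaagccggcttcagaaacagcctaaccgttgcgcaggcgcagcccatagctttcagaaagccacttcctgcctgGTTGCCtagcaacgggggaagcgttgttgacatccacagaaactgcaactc
Sntn: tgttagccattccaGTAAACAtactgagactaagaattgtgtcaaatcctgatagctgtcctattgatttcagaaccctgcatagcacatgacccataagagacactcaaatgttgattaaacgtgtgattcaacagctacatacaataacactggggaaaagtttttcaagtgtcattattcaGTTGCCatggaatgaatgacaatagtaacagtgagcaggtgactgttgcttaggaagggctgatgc
The Ccno match GTTGCCACGGTGAC begins 219 bases before the start and is a whole X-box (GTNNCC, then 3 free bases, then GNAAC) read on the minus strand. The core begins 51 bases before the start in Dynlrb2 and 66 bases before it in Sntn, and the Sntn forkhead match begins 236 bases before it. Both strands were searched, and a core can lie inside a whole X-box. The core was present in 16 of the 31 member promoters (51.6%) and in 14.1% of 27025 genes with windows of the same length. A whole X-box was present in 6 members (19.4%), namely Ccno, Deup1, Cfap44, Pifo, Spag6l and Hydin, against 2.49% of all genes. The forkhead motif was present in 3 members (9.68%), Myb, Cfap43 and Sntn, against 4.05%. Ccno (chr13:112987802-112990778) and Mcidas (chr13:112993581-113000394) are neighbours 2802 bases apart, and Cdc20b, another gene of the deuterosome programme, follows 34580 bases beyond Mcidas.

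Ciliated cells were a larger share of the sorted cells than of any organoid library. Of 7350 kept cells at day 0, 1015 passed the gate (13.8%, exact 95% interval 13.0 to 14.6). The gate held 29 of 7893 cells at day 8 (0.367%, 0.246 to 0.527), 122 of 9311 at day 13 (1.31%, 1.09 to 1.56) and 54 of 9178 at day 20 (0.588%, 0.442 to 0.767). Depth differed between the libraries: gated cells had a median of 2594 UMIs at day 0 and 33711, 31074 and 20672.5 at days 8, 13 and 20, so levels are given as CPM, the UMIs of a gene scaled to a total of 1000000 UMIs over the gated cells of a library. The cells next to the gate held 0.10015% of UMIs just inside and 0.0997% just outside it at day 0, and 941 cells of that library lay between 0.05 and 0.2%, against 16, 42 and 14 in culture. No cell barcode was shared between gated cells of any pair of libraries, although 25 to 41 barcodes were shared by each pair of whole libraries.

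The 4 gate genes alone did not identify all day 0 cells as ciliated. Of the 1015 cells, 327 passed on Tppp3 alone and 212 held fewer than 3 gate UMIs. A stricter gate, requiring in addition at least 3 UMIs from at least 2 of the 4 genes, kept 624, 27, 114 and 52 cells. At day 0 the strict cells had UMIs of a median of 23 of the 38 members, and the 391 cells it dropped had a median of 2. Those 391 cells held 22850 CPM of the alveolar type 1 (AT1) list Ager, Hopx, Rtkn2 and Akap5, with 188 cells at or above 0.2% of UMIs, while the strict cells held 1458 CPM. Foxj1 stood at 497 CPM in the strict cells and 16.4 CPM in the dropped ones, and Sec14l3 at 1830 and 678 CPM. In culture the strict gate dropped 2, 8 and 2 cells. Ratios to day 0 are therefore given for the gate as set, with strict values beside them.

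Lists of other cell types in the gated cells also differed between libraries. All 4 airway secretory markers (Scgb1a1, Scgb3a2, Scgb3a1 and Cyp2f2) were detected in each, summing to 80203, 35042, 28711 and 24950 CPM at days 0, 8, 13 and 20. At day 0 their share of a cell's UMIs ran from 0.0932 to 69.0% with a median of 0.860%. The alveolar type 2 (AT2) list Sftpc, Sftpb, Napsa and Lamp3 reached 0.2% of UMIs in 39 of 1015, 17 of 29, 40 of 122 and 18 of 54 gated cells, and the myeloid list Tyrobp, Fcer1g, Cd68 and Lyz2 in 210, 8, 49 and 18. The leukocyte list Ptprc, Coro1a, Laptm5 and Cd52 did so in 153 day 0 cells and in 0, 2 and 3 culture cells. Of the basal markers, 3 of 4 were at 0 at day 0. The part of free RNA or of 2 cells sharing a droplet in these values was not tested. The epithelial markers Epcam, Cdh1, Krt8 and Krt18 were all detected, at 2212, 7069, 4080 and 2173 CPM at days 0, 8, 13 and 20.

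Against this background the members were compared with day 0, first all together and then by role. At day 8, 4 of 38 members were higher than at day 0 and 16 were lower, where a call needs a ratio of at least 2, at least 20 CPM in the larger library and a counting interval that leaves out 1. Of all 7960 features tested in the same cells 10.3% were called higher and 25.3% lower, and the median log2 ratio was -0.73 over the members and -0.29 over all features. At day 13, 3 of 37 members tested were higher and 7 lower (10.3% and 24% of all features), with medians of -0.34 and -0.27. At day 20, 3 of 37 were higher and 6 lower (8.11% and 19.1%), with medians of -0.36 and -0.22. With the gate as set, the members' shares at days 13 and 20 were thus at or below those of all features. With the strict gate the counts were 3 higher and 19 lower at day 8 (12% and 22.9% of all features), 3 and 13 at day 13 (11% and 21.4%), and 2 and 12 at day 20 (8.88% and 16.4%). The strict shares lower were 50, 35.1 and 32.4% of the members tested, above those of all features at each day. The strict shares higher stayed below those of all features. These 3 comparisons share the day 0 library. The 4 gate genes were used to choose the cells, so their own levels are a description: none was called at any day, with Foxj1 between 0.83 and 0.86 of its day 0 level and Dynlrb2 between 1.05 and 1.21.

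The regulators of the deuterosome stage were the members with the highest ratios in culture. Mcidas, the coactivator that starts the multiciliated programme, had 0 UMIs in the 1015 gated cells of day 0 and 33, 76 and 10 UMIs in the 29, 122 and 54 cells of days 8, 13 and 20, or 0, 29.7, 18.4 and 7.82 CPM. With the day 0 library set to a floor of 3 UMIs, its day 8 ratio was 35.3. At days 13 and 20 the ratios on the same floor were 21.9 and 9.30. These 3 ratios depend on the floor and are not lower limits. At days 13 and 20 Mcidas stayed under the level of 20 CPM that a call requires, and at day 20 a single cell held 60.0% of its UMIs. Ccno, the cyclin O needed for deuterosome-based centriole production, stood at 3.64, 175, 64.3 and 32.1 CPM. All 3 culture libraries lay above day 0, with ratios of 48.1 (95% interval 27.5 to 92.0), 17.7 (10.1 to 33.6) and 8.80 (4.62 to 17.9). Deup1, the scaffold protein of the deuterosome, stood at 19.9, 200, 139 and 46.1 CPM, and was 10.0-fold, 6.97-fold and 2.32-fold higher than at day 0. With the strict gate the day 20 ratio of Deup1 was 1.91 and no longer called, and without the cell holding most of its UMIs it was 1.66. For Ccno at day 20 a single cell held 56.1% of the UMIs, and without it the ratio was 4.14 and the level under the 20 CPM that a call requires. In the strict gate without cells holding AT1 or AT2 genes, the day 20 ratio of Ccno turned to 0.817 and that of Deup1 was 1.09, neither called.

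The transcription factors that act on the axonemal genes were level or lower in culture. Foxj1, which switches on the motile axoneme, stood at 390, 330, 335 and 324 CPM, so its 4 libraries lay within 1.21-fold of each other. It is one of the gate genes, so this closeness is a description only. In the strict day 0 cells Foxj1 was higher, at 497 CPM. Myb, a factor of early multiciliated differentiation, stood at 231, 63.8, 67.7 and 47.7 CPM, 3.61-fold, 3.41-fold and 4.84-fold lower than at day 0. Trp73, the p53 family member upstream of Foxj1, stood at 53.5, 12.6, 15.3 and 18.8 CPM and was 4.25-fold, 3.5-fold and 2.85-fold lower. Both were thus highest in the sorted cells at every comparison. Rfx3 stood at 87.2, 29.7, 27.7 and 40.7 CPM, 2.94-fold, 3.15-fold and 2.14-fold lower, while Rfx2, at 56.1, 29.7, 36.2 and 36.0 CPM, was not called at any day with the gate as set and was 2.22-fold lower at day 8 with the strict gate. Myb was also present in day 0 leukocytes, at 79.5 CPM, and 153 gated cells of that library reached 0.2% of UMIs in leukocyte markers. In the strict day 0 cells, where 47 cells did, Myb was at 286 CPM, and the culture ratios became 4.48-fold, 4.22-fold and 6.0-fold lower. Trp73 at day 8 rested on 14 UMIs, and averaging over cells instead of summing UMIs gave a ratio of 1.24, in the opposite direction.

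**Figure D1:**
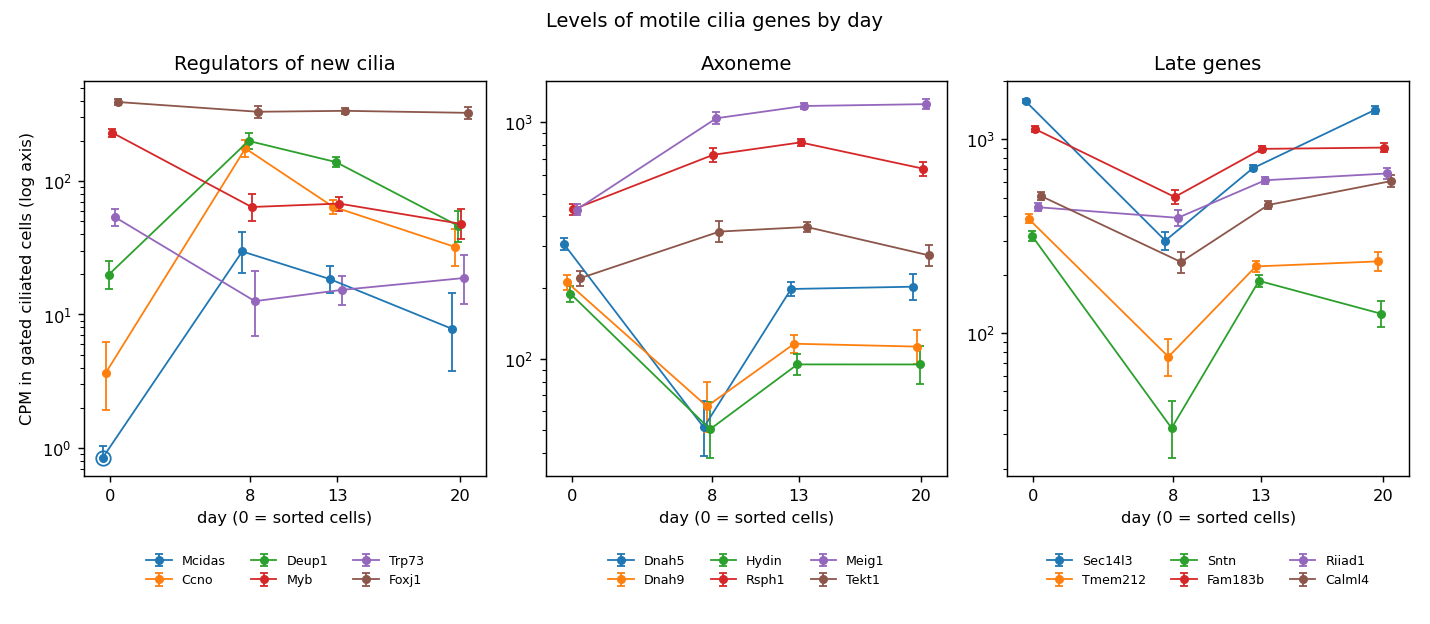
Level of 6 members of each role in gated ciliated cells (CPM of summed UMIs, log axis) against day, 1 library per day, with exact Poisson 95% intervals for counting error. The ring marks Mcidas at day 0, which had 0 UMIs and is drawn at the floor of 3 UMIs. Ccno and Deup1 peak at day 8 at 175 and 200 CPM, and Sntn has its lowest level there at 32.4 CPM.

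Axonemal members did not move as a block. At day 8, 1 of 24 was higher and 8 were lower (33.3% lower, against 25.3% of all features). At day 13 the counts were 1 and 3 (12.5% lower, against 24%), and at day 20 they were 1 and 2 (8.33%, against 19.1%), so the later shares lay below those of all features. With the strict gate the counts were 0 and 10, 1 and 7, and 1 and 7. There 41.7, 29.2 and 29.2% of the axonemal members were lower, above the 22.9, 21.4 and 16.4% of all features. The lower ones were led by the dynein heavy chains, the motor subunits of the arms. Dnah5, of the outer arm, stood at 305, 51.2, 197 and 202 CPM, 5.96-fold lower at day 8 (4.56 to 7.92) and above that level again in both later libraries. Dnah9 and Dnah11, also of the outer arm, stood at 210, 62.9, 116 and 113 CPM and at 119, 25.2, 56.3 and 44.6 CPM. Dnah12, of the inner arm, stood at 373, 97.1, 169 and 156 CPM. All 4 were lowest at day 8 and highest at day 0. Dnah11 and Dnah12 were called lower at all 3 culture days, and Dnah9 at day 8 only with the gate as set. Hydin, of the central pair, stood at 189, 50.3, 94.7 and 94.6 CPM, and Cfap43, of the tether that holds an inner arm, at 181, 47.6, 84.2 and 92.3 CPM. Both were lower at day 8, by 3.75-fold and 3.80-fold. The day 13 and day 20 ratios of Hydin, 0.50 at each, lay at the 2-fold limit, were not called and passed it with the strict gate (0.395 at each day).

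Radial spoke genes went different ways. Rsph4a, a head protein of the spoke, stood at 158, 62.0, 93.2 and 117 CPM and was 2.55-fold lower at day 8. Rsph1 stood at 429, 729, 823 and 637 CPM and Rsph9 at 265, 408, 435 and 357 CPM, higher in each culture library than at day 0 but within 2-fold and so not called. The same held for Pifo, at 341, 494, 581 and 514 CPM, and for Tekt1, a tektin of the doublet wall, at 219, 345, 361 and 274 CPM. Tekt1 turned at day 20 with the strict gate, at 279 CPM at day 0 and 274 at day 20, while Rsph1, Rsph9 and Pifo were still higher by 1.18-fold, 1.06-fold and 1.18-fold there. Meig1 was the axonemal list's only member called higher: it stood at 428, 1041, 1173 and 1194 CPM, 2.43-fold (2.25 to 2.63), 2.74-fold and 2.79-fold above day 0. With the strict gate the day 8 ratio was 1.91 and not called, and the later ones were 2.15 and 2.19. In the strict gate without cells holding AT1 or AT2 genes the day 20 ratio was 1.99. With the gate as set, the other axonemal members stayed within 2-fold of day 0 at all 3 days, apart from Cfap44. Cfap44 was 2.19-fold lower at day 8. The others were the intermediate chains Dnai1 and Dnai2, the ruler proteins Ccdc39 and Ccdc40, Ccdc113, Cfap52, Cfap126 and Spag6l. Their day 8 ratios ran from 0.573 for Ccdc39 to 1.14 for Cfap52. With the strict gate 10 axonemal members were lower at day 8, some of them among these others.

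The longest member genes, by genomic span in GENCODE M21, were lower in culture, as long genes were in general. The 7 members longer than 100 kb (Rfx3, Cfap43, Dnah5, Dnah9, Dnah11, Dnah12 and Hydin, 182 to 343 kb) were all lower at day 8, with a median log2 ratio of -1.93. Of all 1055 genes tested that are longer than 100 kb, 42.3% were lower at day 8 and the median was -0.83. Among the 1948 genes under 10 kb 15.4% were lower and the median was 0.19. Shorter members showed no such order, with day 8 medians of -0.37 for the 6 under 10 kb, -0.18 for the 13 from 10 to 30 kb and -0.73 for the 12 from 30 to 100 kb. The gradient over all genes also stood in other classes of cells: in the leukocyte class of the same libraries the day 8 medians were 0.08 under 10 kb and -0.65 over 100 kb, and in the mesenchymal class 0.22 and -0.81. Long genes were thus lower in culture in all 3 kinds of cells. At day 13 the 7 long members had a median of -1.08 against -0.78 for all long genes, with 4 called lower (40.8% of all long genes), and at day 20 -1.0 against -0.66, with 3 called lower (32.6%). With the strict gate all 7 were lower at day 8 and 6 at each later day, with medians of -2.27, -1.41 and -1.34. For all long genes the strict medians were -0.75, -0.69 and -0.59, with 38.8, 35.7 and 27.3% lower. The part of gene length in the dynein, Hydin, Cfap43 and Rfx3 ratios was not tested. The late genes span 9.16 to 30.3 kb, and 4 of the 6 (Sec14l3, Sntn, Riiad1 and Calml4) lie between 10 and 30 kb, where all genes tested had a median of -0.10 at each of the 3 days. Myb (36.1 kb) and Trp73 (84.0 kb) lie in the range of 30 to 100 kb, where the medians were -0.52, -0.55 and -0.42.

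**Figure D2:**
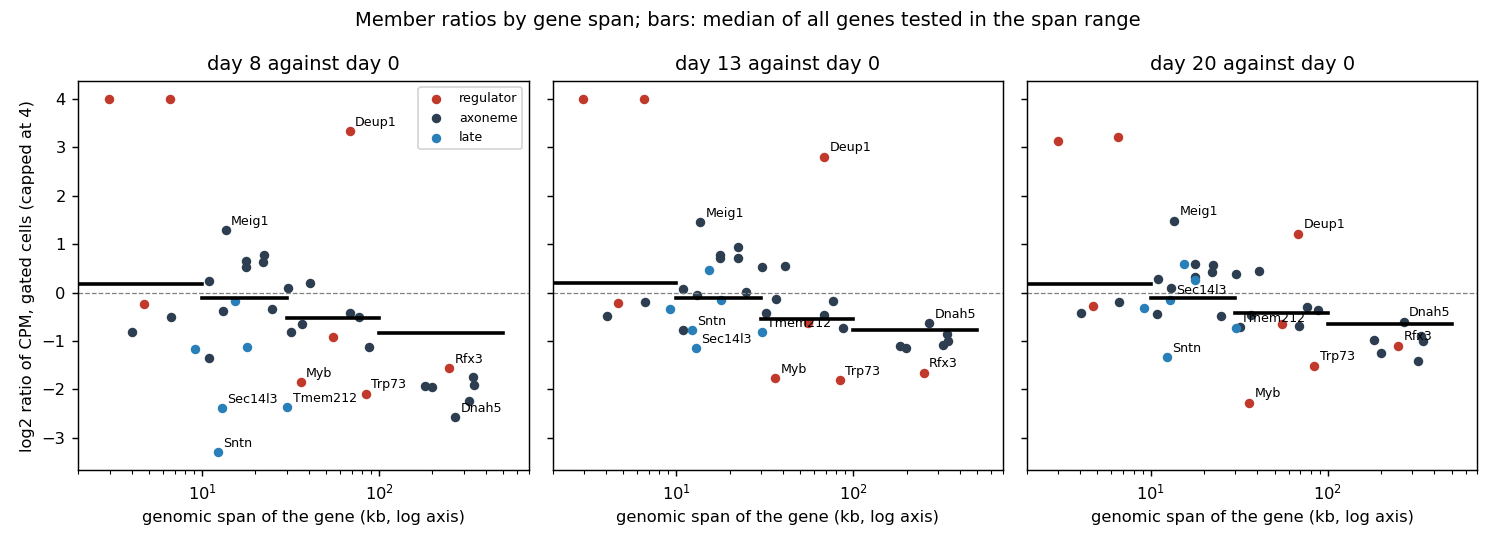
Log2 ratio of each member in gated cells, culture day against day 0 (capped at 4), against the genomic span of its gene (kb, log axis), coloured by role, with black bars at the median of all genes tested in 4 ranges of span. The 7 members over 100 kb lie below the zero line in all 3 panels, as do the medians of all genes of that span, while Sntn, Tmem212 and Sec14l3 lie far below the bar of their range at day 8.

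Late genes had the lowest median ratio of the 3 roles at day 8. At day 8, 5 of the 6 were lower than at day 0 and the median log2 ratio was -1.76. Of all features 25.3% were lower at that day. At days 13 and 20, 1 of the 6 was lower (16.7%, below the 24% and 19.1% of all features), Sec14l3 at day 13 and Sntn at day 20. Sntn (sentan), a protein of the ciliary tip, stood at 318, 32.4, 186 and 126 CPM, 9.84-fold lower at day 8 (7.06 to 14.1). A single cell held 58.3% of the 36 Sntn UMIs of day 8, and without the cell holding most of them in each library the ratio was 0.05. Sec14l3, a lipid-binding protein of the SEC14 family abundant in ciliated cells, stood at 1574, 300, 709 and 1419 CPM, 5.24-fold lower at day 8, 2.22-fold lower at day 13 and at 0.90 of the day 0 level at day 20. The 3 culture libraries were thus ordered by time for this gene. Tmem212, a membrane protein, stood at 389, 75.5, 221 and 235 CPM and was 5.15-fold lower at day 8. Fam183b and Calml4, a calmodulin-like protein, stood at 1131, 504, 893 and 907 CPM and at 509, 233, 459 and 608 CPM, and each was lowest at day 8. Riiad1 was the late gene not called at any day, at 446, 394, 615 and 667 CPM. With the strict gate the same 5 were lower at day 8, and at day 13 Sntn, Tmem212 and Sec14l3 were lower. The strict shares of late genes lower at days 13 and 20 were 50 and 33.3%, above the 21.4 and 16.4% of all features.

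**Figure D3:**
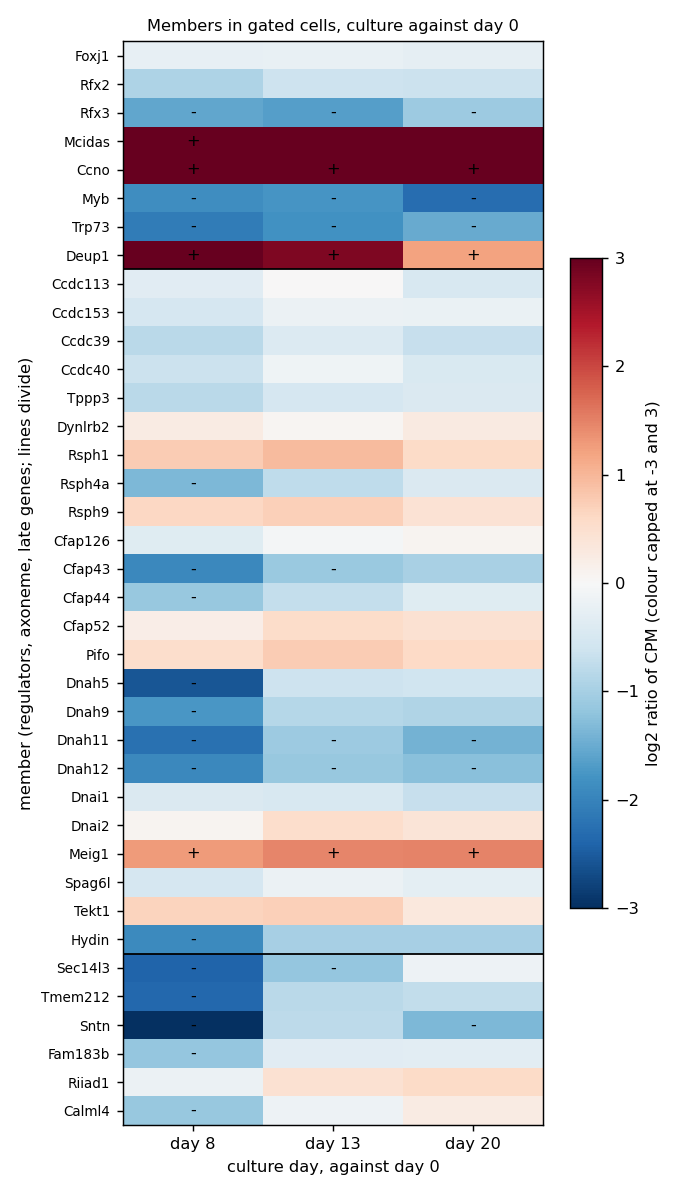
Log2 ratio of CPM in gated cells, each culture day against day 0, for the 38 members in the order regulators, axoneme and late genes (colour, capped at -3 and 3). Plus and minus signs mark members called higher or lower. Ccno, Deup1 and Meig1 carry a plus in all 3 columns, and most minus signs stand in the day 8 column, 16 against 7 and 6.

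Between culture days the gated cells had closer depths, and these comparisons do not use the day 0 library. From day 8 to day 13, 5 of 37 members were higher (4.44% of 6685 features) and 1 was lower (2.33%). The higher ones were Sntn (5.75-fold, 4.12 to 8.28), Dnah5 (3.85-fold), Tmem212 (2.93-fold), Sec14l3 (2.36-fold) and Dnah11 (2.24-fold), and the lower one was Ccno (2.72-fold). From day 8 to day 20, 5 of 37 were higher (8.59% of all features) and 3 lower (5.77%). The higher ones were Sec14l3 (4.73-fold), Dnah5 (3.94-fold), Sntn (3.89-fold), Tmem212 (3.11-fold) and Calml4 (2.61-fold). The lower ones were the deuterosome regulators Ccno (5.47-fold), Deup1 (4.32-fold) and Mcidas (3.79-fold). From day 13 to day 20, Sec14l3 was 2.0-fold higher (3.9% of all features higher), and Ccno and Deup1 were lower (3.01% lower), to 0.50 and 0.33 of their day 13 levels, of 36 tested. So 4 of 6 late genes were higher and 3 of 7 tested regulators lower at day 20 than at day 8, while 1 of 24 axonemal genes was higher. The median log2 ratio of the members was 0.35 at day 13 against day 8 and 0.29 at day 20 against day 8, where those of all features were -0.02 and 0.01. The day 8 library enters both comparisons and holds 29 gated cells. The strict gate gave the same counts of members at all 3 comparisons (4.42% of all features higher and 2.32% lower from day 8 to 13, 8.58% and 5.78% from day 8 to 20, and 3.86% and 2.97% from day 13 to 20).

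The early regulators were counted in a part of the gated cells. Cells with a UMI of at least 2 of Mcidas, Ccno, Deup1, Cdc20b and Foxn4, a forkhead factor of the same stage, are called deuterosome-gene cells here. They were 2 of the 1015 gated cells at day 0, 14 of 29 at day 8 (48.3%, exact 95% interval 29.4 to 67.5), 39 of 122 at day 13 (32.0%, 23.8 to 41.0) and 5 of 54 at day 20 (9.26%, 3.08 to 20.3). Outside the gate there were 1, 6, 17 and 3 more. Depth bears on this count: the deuterosome-gene cells had medians of 47458.5, 39991 and 24328 UMIs at days 8, 13 and 20, against 17978, 26076 and 20652 for the other gated cells, and the day 0 gated cells a median of 2594. After thinning every cell to 2000 UMIs, which leaves 609, 27, 111 and 48 gated cells, the share of cells with a Deup1 UMI was 4.3, 22.2, 17.1 and 2.1%, and the share with a Mcidas UMI was 0, 14.8, 2.7 and 0%. Before thinning the shares were 6.01, 69.0, 63.1 and 40.7% for Deup1 and 0, 31.0, 18.03 and 7.41% for Mcidas. In leukocytes thinned to 2000 UMIs the highest share in any library was 0.0943% for Deup1 and 0 for Mcidas. Thinned to 1000 UMIs instead, with 832, 27, 115 and 51 gated cells, the Deup1 shares were 1.92, 7.41, 12.2 and 7.84%. The culture shares rested on 2, 14 and 4 cells, and day 8 was no longer the highest, so the order of the culture days depends on the depth chosen. The Mcidas shares at 1000 UMIs were 0, 3.70, 0 and 0%.

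At days 8 and 13, all 6 late genes were lower in the deuterosome-gene cells than in the other gated cells of the same library. For Sntn at day 8 this rested on 21 UMIs, all in 1 cell, against 15. The interval of that ratio, 0.304 to 1.29, included 1. Lower here means any ratio below 1, without the 2-fold rule: Riiad1 was at 0.684 and 0.860 at days 8 and 13. The share of all features lower was not computed for this split, so the count of late genes has no background. The summed UMIs of Sec14l3, Tmem212 and Sntn per 10000 UMIs of a cell had medians of 1.13 in deuterosome-gene cells and 11.2 in the other gated cells at day 8, 1.03 and 15.1 at day 13, and 11.6 and 17.4 at day 20. At day 0 the order was the opposite, with a median of 37.9 in the 2 deuterosome-gene cells and 18.5 in the others. At day 20, with 5 such cells, Riiad1 was on the other side too, at 787 against 650 CPM. At day 13, Sntn stood at 78.2 CPM in deuterosome-gene cells and 266 CPM in the others, Sec14l3 at 394 and 941 CPM, and Calml4 at 259 and 607 CPM. At day 8, Calml4 stood at 41.5 and 665 CPM and Sec14l3 at 121 and 706 CPM. Myb, a regulator not used to choose the cells, was on the other side, with 80.4 and 26.4 CPM at day 8 and 126 and 24.9 CPM at day 13. Foxj1, one of the gate genes, stood at 306 and 384 CPM and at 413 and 278 CPM. Tekt1 was higher in the deuterosome-gene cells of both days, at 416 against 185 CPM and 514 against 248 CPM. Dnah5 was lower in them, at 27.2 against 105 CPM and 144 against 237 CPM. These are contrasts between cells of 1 library, so they carry no test.

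**Figure D4:**
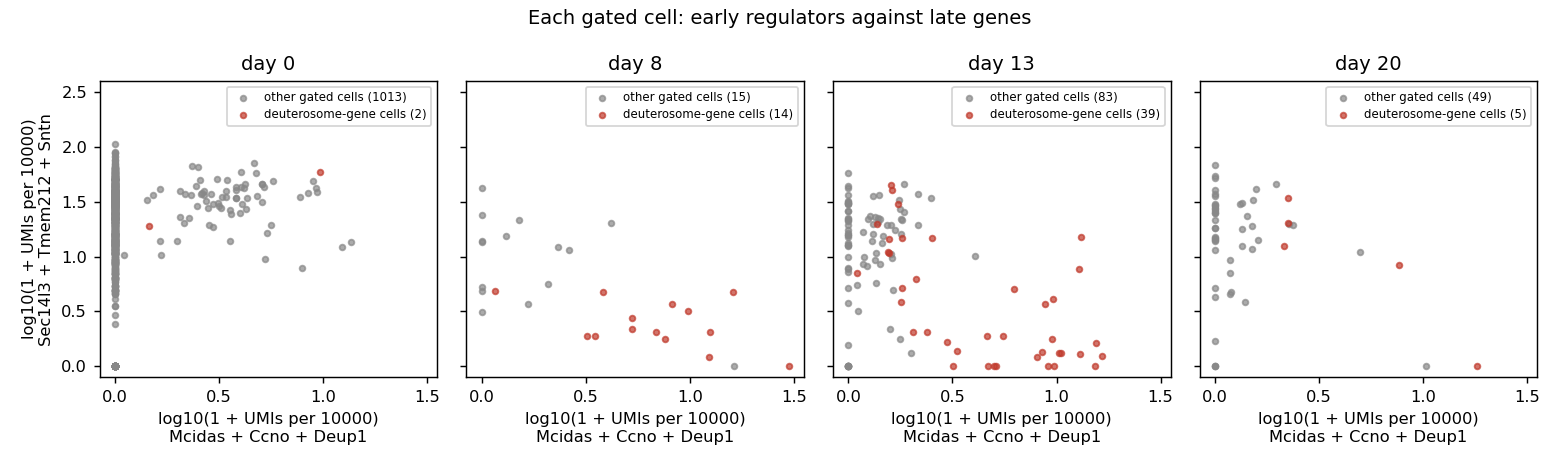
Each point is 1 gated cell: summed UMIs of Mcidas, Ccno and Deup1 per 10000 UMIs of the cell (horizontal) against those of Sec14l3, Tmem212 and Sntn (vertical), both as log10(1 + value), in 1 panel per day. Red points are deuterosome-gene cells, numbering 2, 14, 39 and 5, and at days 8 and 13 most of them lie low on the late-gene axis (medians 1.13 and 1.03 UMIs per 10000).

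Leaving the deuterosome-gene cells out ended the higher calls of Mcidas, Ccno and Deup1, which the choice of cells fixes, and also bore on members it did not use. Without them, 15, 83 and 49 culture cells remained. The day 8 ratio of Sec14l3 was 0.45 in place of 0.19, that of Dnah5 0.34 in place of 0.17, and that of Tmem212 0.31 in place of 0.19. Sntn stayed at 0.14 and Myb went to 0.11. Calml4 passed to the other side, at 1.30 in place of 0.46, and Meig1 went to 1.74 at day 8 while it kept 2.34 and 2.49 at days 13 and 20. The 5 members higher at day 20 than at day 8 were also read without these cells at days 8, 13 and 20. Calml4 stood at 665, 607 and 636 CPM and Sec14l3 at 706, 941 and 1450 CPM. Dnah5 stood at 105, 237 and 216 CPM, Tmem212 at 123, 295 and 261 CPM, and Sntn at 43.9, 266 and 144 CPM. The counts of members lower than at day 0 without these cells were 13, 4 and 7 at the 3 days, against 16, 7 and 6 with them. The share of all features called was not computed without these cells. The change in counts therefore cannot be set against a background.

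The other genes of motile cilia were read from a list of 110 symbols, of which 98 matched. At day 8, 4 of 89 tested were higher and 32 lower, at day 13 5 of 90 and 20, and at day 20 5 of 88 and 18, with median log2 ratios of -0.57, -0.18 and -0.35, where those of all features were -0.29, -0.27 and -0.22. With the gate as set the shares lower were 36.0, 22.2 and 20.5%, against 25.3, 24 and 19.1% of all features. Those of days 13 and 20 were thus near the background. The strict gate gave 43, 27 and 27 lower, or 47.8, 29.7 and 30.3%. All 3 strict shares lay above those of all features, 22.9, 21.4 and 16.4%. The highest ratio at day 8 was that of Plk4, the kinase that starts centriole duplication, at 42.2 CPM against 7.85 at day 0 (5.38-fold). Morn5 was 4.26-fold, 5.31-fold and 3.62-fold higher at the 3 days, from 55.5 CPM at day 0, and Ropn1l, a radial spoke protein, 3.03-fold, 3.78-fold and 2.48-fold. Plk4 was 3.87-fold higher at day 13 too, and Capsl 2.74-fold higher at day 20. The lowest ratios were those of Ccdc190, Dnah7c and Cfap47 at day 8 (0.0569, 0.103 and 0.134), of Ccdc190, Dnah7a and Spag16 at day 13 (0.164, 0.234 and 0.257), and of Kif27, Tekt2 and Ccdc190 at day 20 (0.265, 0.288 and 0.314). Dnah7c at day 8 rested on 2 UMIs, set to the floor of 3, and Ccdc190 on 3 UMIs.

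Most members were near 0 in leukocytes. In leukocytes of the same library, which carry no motile cilia, all members tested were lower than in the gated cells at each day: 35 of 35 at day 0 (29.2% of all features higher in gated cells), 37 of 37 at day 8 (30%), 36 of 36 at day 13 (33.2%) and 36 of 36 at day 20 (30.3%). The gate defines this contrast for its own 4 genes. For the members outside the gate the counts were 31, 33, 32 and 32, again all those tested. The level in leukocytes was a median of 0.713% of the gated level at day 0 and 0.0565, 0.213 and 0.0489% at days 8, 13 and 20. The exceptions at day 0 were regulators: Ccno at 55.5%, Myb at 34.4%, Rfx2 at 21.5% and Rfx3 at 11.8%. With 2.02 CPM in leukocytes and 3.64 CPM in gated cells, Ccno at day 0 could not be told from the background at this depth, and its ratios rest on that level. At days 8, 13 and 20 Ccno in leukocytes was 0.46, 0.25 and 0.20 CPM.

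Outside the leukocytes some members were present in cells that did not pass the gate. In the day 0 epithelial class (cells outside the gate whose largest marker sum was that of Epcam, Cdh1, Krt8 and Krt18), Sec14l3 stood at 792 CPM and Tppp3 at 357 CPM, while Foxj1 had 0 UMIs. In the mesenchymal class Calml4 stood at 52.2, 39.98, 72.6 and 85.6 CPM at days 0, 8, 13 and 20, while Sntn was at or below 0.02 CPM there. Thinned to 2000 UMIs, a member was detected in a median of 37.0, 22.2, 29.7 and 26.0% of gated cells and in a median of at most 0.470% of leukocytes, with a median of 17, 13, 13 and 13 members per gated cell. On that scale Sntn was detected in 45.8, 14.8, 27.9 and 14.6% of gated cells. Its shares at days 8 and 20 were thus alike, although its levels there were 32.4 and 126 CPM. Thinned to 1000 UMIs, these 2 shares were 3.70 and 13.7%. Meig1 was detected in 50.1, 63.0, 76.6 and 81.2% at 2000 UMIs, in the same order as its CPM. Before thinning the shares were 43.9, 20.7, 59.8 and 50% for Sntn and 44.8, 86.2, 90.2 and 92.6% for Meig1.

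**Figure D5:**
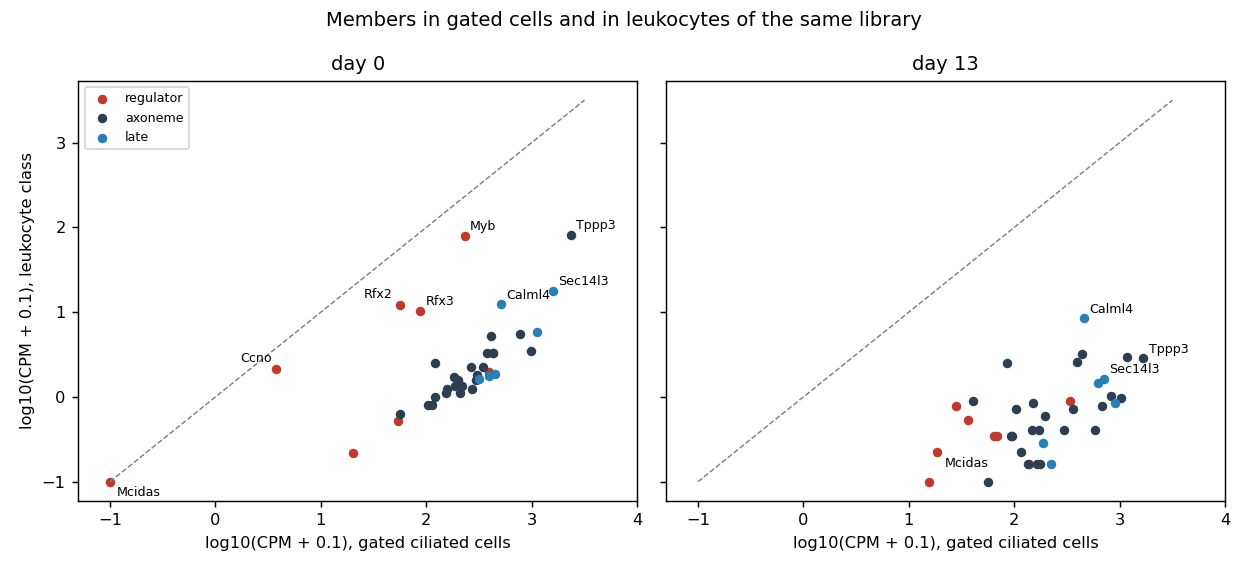
Level of each member in gated cells (horizontal) against its level in the leukocyte class of the same library (vertical), both as log10(CPM + 0.1), at days 0 and 13, coloured by role. The dashed line marks equal levels. Nearly all points lie far below it. At day 0 Mcidas, at 0 in both, is drawn on the line, and among the rest Ccno, Myb, Rfx2 and Rfx3 lie nearest to it.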

How the data were processed

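Single-cell RNA was counted in 4 libraries, 1 per day. The authors deposited a matrix of UMI counts for each library, with no normalization. The submitters' processing notes name Cell Ranger 7.0.1 and the mm10 build. Which annotation was counted, and whether intronic reads or free RNA were handled, is not stated by any label or file header. The molecule is entered as nuclear RNA although the protocol describes suspensions of single cells. No normalized values were used.

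Cells were kept with at least 500 genes and at most 15% mitochondrial UMIs. UMIs of gated cells were summed per library and divided by their total (CPM). Ratios have exact conditional Poisson 95% intervals, a side under 3 UMIs was set to 3, and shares have Clopper-Pearson intervals; these cover counting error only. Calls used the rule in the text over all features. Simulated data made from the day 13 and day 0 totals returned 200 of 200 changed genes and 0 calls among 7297 unchanged ones, and intervals covered 95.2%. The simulated counts were Poisson, with no spread between cells. Their changes were larger than the limit for a call, in genes above the level floor. The simulation thus checks the arithmetic of the rule and cannot show how the calls hold for real cells. Cells outside the gate were classed by the largest of 4 marker sums reaching 0.2% of UMIs. Doublets were scored with Scrublet (Scanpy 1.11.5). The automatic cutoff marked 0, 255, 0 and 0 cells and so did not work in 3 libraries, and removing the top scores (0.8% per 1000 barcodes, 523 to 853 cells) is an alternative, not the main setting. Python 3.11.15, NumPy 2.4.6, SciPy 1.17.1 and pandas 2.3.3 were used. Promoters are from RefSeq GRCm38.p6, which is the build of mm10, and 36 of the 38 members matched its gene table.

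All 38 members are named. Of the wider list up to 3 called genes per direction and day are named, by largest ratio. The members, lists and gate were chosen with earlier results of these data known. The comparison with gene span, the deuterosome-gene split of the ratios and the values without the cell holding most UMIs were added after the ratios were seen. Alternatives were other gates, cell filters, thinning, doublet removal, and means over cells. On the same strand only Cfap43 overlaps another gene (Itprip) in GENCODE M21.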

Additional observations from a re-analysis of the deposited data

How the results depend on the processing

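No paired analysis was possible because each day is 1 library. Of 59 member ratios recomputed (those called in the gated cells or under some alternative), 17 kept their direction and call under all alternatives, 42 did not under some, and 5 turned. The ones that turned were Trp73 at day 8 as a mean over cells (1.24), Calml4 at day 8 without deuterosome-gene cells (1.30), Ccno without them at days 13 and 20 (0.537 and 0.855), and Ccno at day 20 in the strict gate without cells holding AT1 or AT2 genes (0.817). The gated cells of day 0 numbered 624 with the strict gate, 633 at a gate share of 0.2% and 607 without Tppp3, and those of day 8 numbered 47 over all barcodes. Members higher at day 8 were 0 without deuterosome-gene cells. Members lower at day 8 were 10 as a mean over cells. At day 13, 1 was higher without deuterosome-gene cells, and the lower ones were 13 with the strict gate, 13 at 0.2%, 11 in the strict gate without AT1 or AT2 cells, 4 without deuterosome-gene cells and 3 as a mean over cells. At day 20, 1 was higher without deuterosome-gene cells, 1 without the cell holding most UMIs and 0 in the strict gate without AT1 or AT2 cells, while the lower ones were 12, 12, 11 and, with a gate on Rsph1, Ccdc113, Sec14l3 and Tmem212, 10. Between culture days, 0 members were lower without deuterosome-gene cells at day 13 and at day 20 against day 8. Apart from the strict gate, the share of all features called was not computed for these settings, so the counts describe the members only. Thinned to 1000 UMIs, the median share was 20.7, 14.8 and 13.7% at days 0, 13 and 20, which fewer UMIs per cell give by construction. The loss of the higher calls of Mcidas, Ccno and Deup1 without deuterosome-gene cells also follows from the choice of cells. So does the loss of their lower calls between culture days. The loss of the higher call of Meig1 at day 8 (1.74) does not. For the rest the cause was not tested. With 29 gated cells at day 8, a level of 29.7 CPM there rests on 33 UMIs.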

Other observations

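Genes of the cell division machinery, outside the rule for named genes, were read in the same cells. In the deuterosome-gene cells of day 8, Cdk1, the mitotic kinase, stood at 191 CPM against 5.86 in the other gated cells, Top2a, a topoisomerase of dividing cells, at 144 against 2.93, and Ccnb1, the mitotic cyclin that binds Cdk1, at 81.7 against 2.93. Mki67, the common proliferation marker, stood at 19.5 and 8.79 CPM. The levels of 2.93 and 5.86 CPM are 1 and 2 UMIs. At day 13 the values were 170 and 13.5 CPM for Cdk1, 112 and 16.9 for Top2a, 70.2 and 5.49 for Ccnb1, and 24.5 and 13.9 for Mki67. So 3 of the 4 were higher by more than 6-fold at day 13 and Mki67 was 1.76-fold higher (1.09 to 2.86). The share of all features higher was not computed for this split. At day 20, with 5 deuterosome-gene cells, the values were 98.4 and 44.8 CPM for Cdk1, 92.2 and 37.6 for Top2a, 105 and 8.96 for Ccnb1, and 12.3 and 18.8 for Mki67, the last in the other direction. Cdc20b and Foxn4 stood at 26.3 and 27.4 CPM in the deuterosome-gene cells of day 13, which they helped to choose, and at 0 in the other gated cells.

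The reporter transcripts were counted as added features. Of strict-gate cells with at least 2 reporter UMIs, EGFP held at least 80% in 180 of 329, 3 of 20, 50 of 107 and 0 of 39 cells at days 0, 8, 13 and 20, and tdTomato did in 67, 5, 25 and 21. The gated cells held 680, 217, 946 and 44.6 CPM of EGFP and 199, 117, 111 and 141 CPM of tdTomato. Of the cells with UMIs of at least 10 members, 572 of 590, 27 of 35, 112 of 141 and 51 of 64 lay inside the gate.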
